A study of Oryza sativa Indica Group with 4 samples.

Results

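Class A heat shock transcription factors were followed in the leaf blades of rice seedlings grown at 30 or 25 °C. The class was taken as 10 loci fixed by identifier, namely HsfA1, HsfA2a to HsfA2e, HsfA3, HsfA4b, HsfA4d and HsfA5, and 9 of them had a row among the 28458 loci of the deposited tables. The mutant togr1-1 and the wild type were each grown at both temperatures, which gives 4 groups with 1 library each. The wild type was Zhongxian 3037, an indica variety, and togr1-1 (written tog1 in the sample labels) is a recessive thermosensitive dwarf line of spontaneous origin in that variety, with a glycine-to-valine substitution in TOGR1, a nucleolar DEAD-box RNA helicase. It is a single mutant line, and all 4 groups share the Zhongxian 3037 background. The seedlings were 22 days old and had been kept at their temperature for the last 18 days, so the libraries describe prolonged growth at either temperature and not a heat shock of hours. Leaf blades of the fourth leaves were pooled into 100 mg per group before RNA extraction. Reads on transcripts came to 12139238 and 12371522 in togr1-1 at 30 and 25 °C, and to 11959859 and 12217702 in the wild type at 30 and 25 °C. The transcript of TOGR1 itself (LOC_Os03g46610) had 156 and 127 reads in togr1-1 at 30 and 25 °C, and 180 and 175 reads in the wild type, and as the mutation is a substitution these reads do not check the genotype labels. The identifiers carry no gene descriptions in the tables, so the leaf label was not checked against marker genes. In bulk leaf RNA, fewer cells of a type and less RNA per cell cannot be told apart.

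Heat shock transcription factors are proteins that form trimers and bind heat shock elements in the promoters of chaperone genes. Of the plant classes A, B and C, class A carries an acidic activation motif in the C-terminal part and switches genes on, while class B lacks this motif and often represses them. In tomato and Arabidopsis HsfA1 proteins are the constitutive regulators that start the heat response, HsfA2 is strongly heat-induced and maintains it, and HsfA3 acts in a later branch downstream of DREB2 factors. In those species HsfA5 can associate with HsfA4, which has been linked to responses to reactive oxygen, and limit its activity. In rice HsfA4d is also known as Spl7, a gene whose loss gives leaves with spontaneous lesions.

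The class was dominated by HsfA1. Levels are given as RPKM, reads scaled to the transcript's length and to the library's total, which the authors deposited for each transcript model and which were summed here over the models of a locus. HsfA1 (LOC_Os03g63750) stood at 111.3 and 111.2 RPKM in togr1-1 at 30 and 25 °C, and at 119.6 and 109.2 RPKM in the wild type at 30 and 25 °C. Only 3.18% of all loci had a higher mean RPKM. HsfA1 thus made up 54.2% and 58.2% of the summed RPKM of the class in togr1-1 at 30 and 25 °C, and 57.4% and 55.4% in the wild type at 30 and 25 °C. Next in the order of mean RPKM over the 4 libraries came HsfA4b with 31.2, HsfA5 with 24.9, HsfA4d with 13.4 and HsfA2e with 10.2. HsfA2b followed with 3.97, HsfA2d with 1.73, HsfA3 with 1.33 and HsfA2c with 0.952. The ranges over the 4 libraries did not overlap between HsfA1 and HsfA4b, between HsfA5 and HsfA4d, or between HsfA2e and HsfA2b. The neighbours HsfA4b and HsfA5, HsfA4d and HsfA2e, HsfA2b and HsfA2d, HsfA2d and HsfA3, and HsfA3 and HsfA2c did overlap in their ranges. Within each library HsfA4b still stood above HsfA5, and HsfA2b above HsfA2d. The order of the other overlapping neighbours changed between libraries. HsfA2a (LOC_Os03g53340), the remaining HsfA2 gene, had no row in either table. The tables list each transcript model with a read in a pair of libraries, and an unlisted locus was therefore read as 0 reads, which allows up to 3 reads in a library. Summed over the class, RPKM was 205.1 and 191.1 in togr1-1 at 30 and 25 °C, and 208.3 and 197.2 in the wild type at 30 and 25 °C. The sum at 30 °C differed from that at 25 °C by 7.37% in togr1-1 and 5.63% in the wild type when scaled by total reads, but by 1.79% and -0.121% with TMM factors and by 3.51% and -0.482% with DESeq2 size factors, so no direction is given for it in the wild type. Without HsfA1 the differences scaled by total reads were 17.5% in togr1-1 and 0.731% in the wild type. They were 11.4% and -4.75% with TMM factors and 13.3% and -5.10% with DESeq2 size factors, so the wild-type sign again changed with the scaling.

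**Figure D1:**
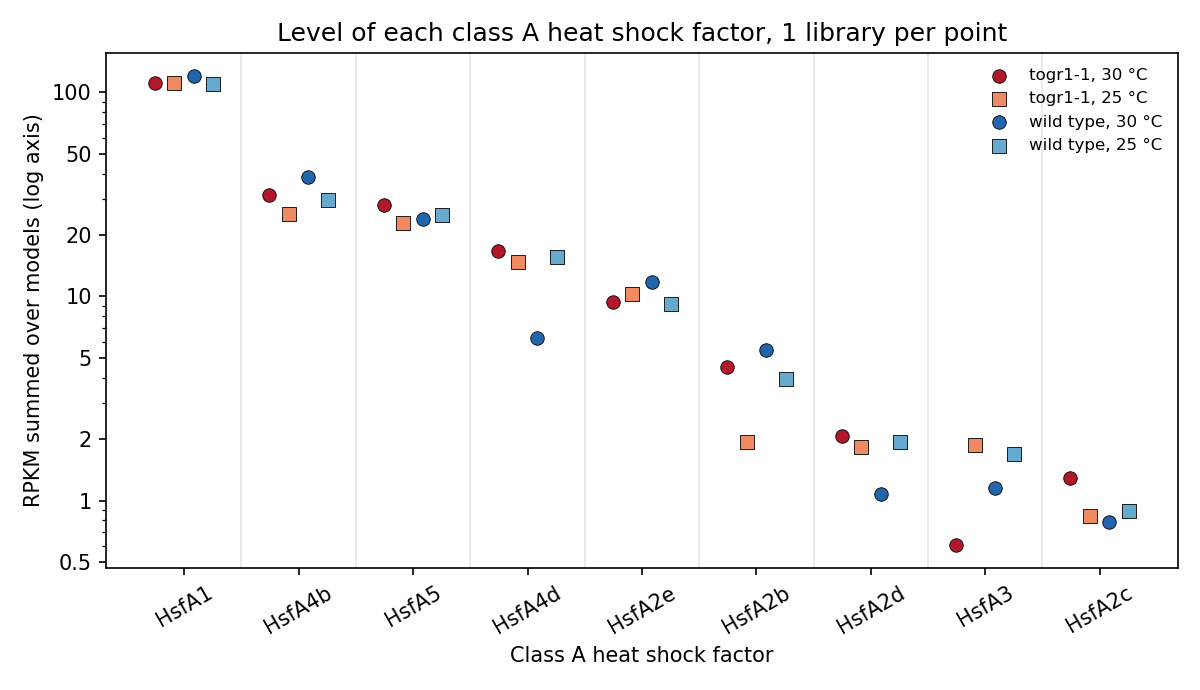
RPKM of the 9 class A heat shock factors with a row (log axis), ordered by their mean, with 1 point for each library (circles 30 °C, squares 25 °C). HsfA1 lies between 109.2 and 119.6 in all 4 libraries, HsfA4d is low in the wild type at 30 °C (6.24) and HsfA2b is low in togr1-1 at 25 °C (1.93).

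Reads of a locus were compared between 2 libraries by a two-sided exact binomial test on counting error, scaled by total reads, and calls required a 2-fold ratio or more together with a Benjamini-Hochberg adjusted p, over all loci, of at most 0.001. With 1 library per group there is no replicate check, and the test compares the libraries and not the conditions. Between the togr1-1 libraries 2 of 9 members were called, 1 higher and 1 lower at 30 °C, against 7.87% of all 26456 loci tested (5.19% higher and 2.68% lower). Between the wild-type libraries 1 of 9 members was called, lower at 30 °C, against 9.09% of all loci (4.59% higher and 4.50% lower). At 30 °C 1 of 9 was called, higher in togr1-1, against 6.42% of all loci (4.08% higher and 2.35% lower). At 25 °C 1 of 9 was called, lower in togr1-1 than in the wild type, against 4.70% of all loci (1.55% higher and 3.15% lower). The difference between the temperature responses of the genotypes was tested on the reads of all 4 libraries by Fisher's exact test with the same thresholds, and 1 of 9 members was called, against 5.37% of all loci (3.50% towards togr1-1 and 1.87% towards the wild type). The balance of higher and lower calls over all loci moved with the scaling. Of the loci called between the togr1-1 libraries 66.0% were higher at 30 °C by total reads, 57.6% with TMM factors and 60.1% with DESeq2 size factors, and between the wild-type libraries 50.5%, 41.9% and 41.2% were. Counts of 1 or 2 in 9 are too small to set the class apart from these shares, and the list as a whole was not tested. The members called in any comparison were 3, namely HsfA4d, HsfA2b and HsfA3, and the other 6 with a row were called in none. The median log2 ratio of 30 over 25 °C was 0.18 over the members in togr1-1, beside 0.045 over all loci tested, and -0.033 in the wild type, beside 0.035. Over the 6 members with at least 200 reads it was 0.23 in togr1-1 and 0.24 in the wild type, beside 0.060 and 0.096 over all such loci, so the sign of the wild-type median turned when members with few reads were left out. These tests hold no variation between plants. With edgeR, a count model given a coefficient of variation of 0.2 by assumption, the 5 calls between pairs of libraries were all lost, at adjusted p from 0.0359 to 0.466 (exact test).

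**Figure D2:**
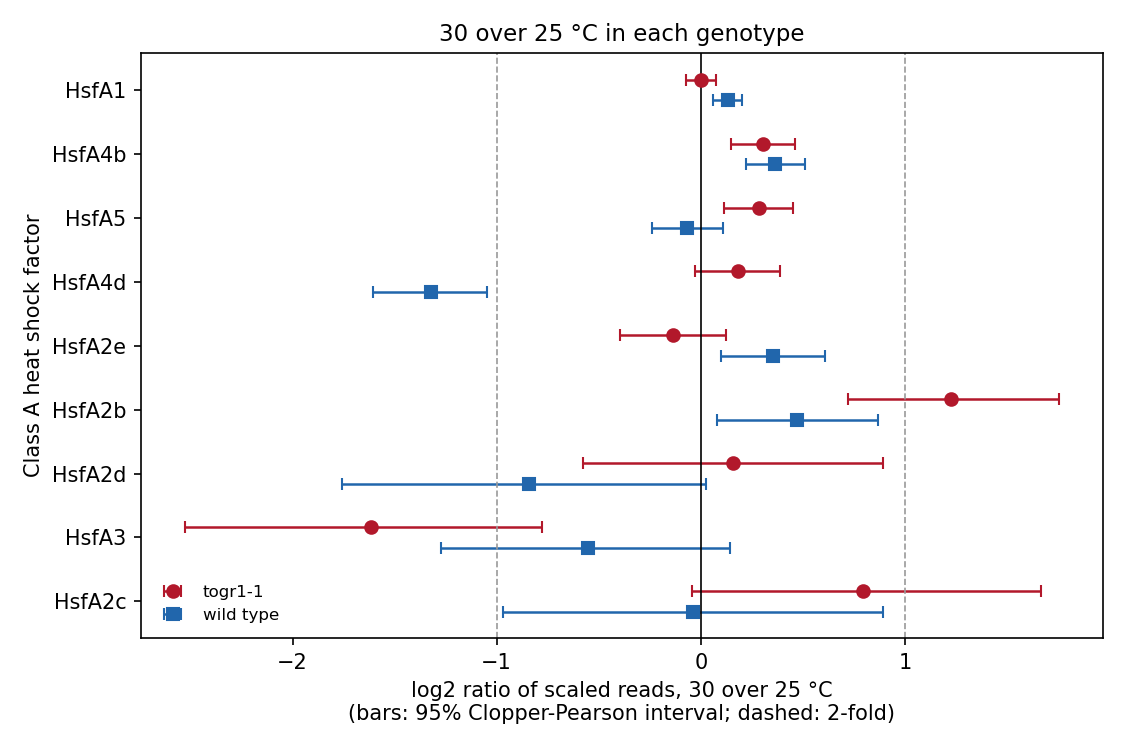
Ratio of scaled reads at 30 over 25 °C for each class A factor on a log2 axis, with no pseudocount, in togr1-1 (circles) and in the wild type (squares). Bars are 95% Clopper-Pearson intervals of counting error and dashed lines mark 2-fold, with HsfA4d lower in the wild type (ratio 0.3995), and HsfA2b (2.34) and HsfA3 (0.326) past 2-fold in togr1-1.

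HsfA1 was the most even member. It had 3024 and 3080 reads in togr1-1 at 30 and 25 °C, and 3204 and 2987 reads in the wild type at 30 and 25 °C. The highest library exceeded the lowest by 1.10-fold. Over the 13667 loci with at least 200 reads the median was 1.61-fold, and 98.9% of those loci had a wider range than HsfA1. Counting error widens the range at few reads, and HsfA1 had 12295 reads over the 4 libraries. The loci were not matched to it for depth, so this share is not a measure of evenness alone. The ratio of 30 over 25 °C was 1.001 in togr1-1 (95% Clopper-Pearson interval 0.951 to 1.05) and 1.10 in the wild type (1.04 to 1.15). The togr1-1 over wild type ratio was 0.930 at 30 °C (0.885 to 0.978) and 1.02 at 25 °C (0.968 to 1.07). These intervals, which cover counting error only, leave no room for a 2-fold difference of HsfA1 between any of these pairs of libraries. The direction of the ratio of 1.001 in togr1-1 changed with the scaling of the libraries, to a log2 ratio of -0.076 with TMM factors and -0.052 with DESeq2 size factors.

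Of the HsfA2 genes, HsfA2b (LOC_Os07g08140) varied most. It had 108 reads (4.52 RPKM) in togr1-1 at 30 °C and 47 reads (1.93 RPKM) in togr1-1 at 25 °C, and 129 reads (5.48 RPKM) and 95 reads (3.95 RPKM) in the wild type at 30 and 25 °C. The library of togr1-1 at 25 °C was the low one, and the other 3 lay between 95 and 129 reads. HsfA2b was 2.34-fold higher at 30 °C in togr1-1 (1.65 to 3.37, adjusted p = 3.01e-06, exact binomial test). In the wild type the ratio was 1.39 (1.06 to 1.83, adjusted p = 0.0429), below the threshold. At 25 °C HsfA2b was 2.05-fold lower in togr1-1 than in the wild type (ratio 0.489, 0.337 to 0.700, adjusted p = 3.06e-04), and at 30 °C the ratio was 0.825 (0.633 to 1.07). Both calls use the same togr1-1 library at 25 °C. The call at 25 °C was at the limit of 2-fold. It was lost with TMM factors, where HsfA2b was 1.99-fold lower with no pseudocount, and was made with DESeq2 size factors, where it was 2.005-fold lower. The response of HsfA2b in togr1-1 was 1.69 times that in the wild type (1.07 to 2.67), with an adjusted p of 0.0688 by Fisher's exact test, so the responses of the genotypes were not shown to differ.

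HsfA2e (LOC_Os03g58160) was the most abundant HsfA2 gene in each library, with 9.39 and 10.3 RPKM in togr1-1 at 30 and 25 °C, and 11.8 and 9.20 RPKM in the wild type at 30 and 25 °C. Its ratio of 30 over 25 °C was 0.911 in togr1-1 (0.760 to 1.09) and 1.28 in the wild type (1.07 to 1.52), neither of which was called. Relative to HsfA2e, HsfA2b stood at 0.482 and 0.187 in togr1-1 at 30 and 25 °C, and at 0.467 and 0.430 in the wild type at 30 and 25 °C, as ratios of RPKM within a library. HsfA2d (LOC_Os03g06630) had 35 and 32 reads in togr1-1 at 30 and 25 °C, and 18 and 33 reads in the wild type at 30 and 25 °C. The lowest HsfA2d library was the wild type at 30 °C, and the ratio of 30 over 25 °C was 1.12 in togr1-1 (0.670 to 1.86) and 0.557 in the wild type (0.295 to 1.02). HsfA2c (LOC_Os10g28340) had 34 and 20 reads in togr1-1 at 30 and 25 °C, and 21 and 22 reads in the wild type, with ratios of 1.73 (0.969 to 3.18) and 0.975 (0.510 to 1.86). Each of these 4 intervals included a ratio of 1. Between the genotypes at 30 °C HsfA2d had a togr1-1 over wild type ratio of 1.92 (1.06 to 3.59, adjusted p = 0.0765, exact binomial test), which was not called. RefSeq annotates HsfA2c as a transcribed pseudogene in the assembly ASM3414082v1, in which it lists all 10 names of the class, each once. Summed over the 4 HsfA2 genes with a row, RPKM was 17.3 and 14.9 in togr1-1 at 30 and 25 °C, and 19.1 and 16.0 in the wild type at 30 and 25 °C.

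HsfA3 (LOC_Os02g32590) was among the least expressed members and was lowest in togr1-1 at 30 °C. It had 16 reads (0.609 RPKM) in togr1-1 at 30 °C and 50 reads (1.87 RPKM) in togr1-1 at 25 °C, and 30 reads (1.16 RPKM) and 45 reads (1.70 RPKM) in the wild type at 30 and 25 °C. The libraries at 25 °C were thus the higher ones in both genotypes. In togr1-1 HsfA3 was 3.07-fold lower at 30 °C (ratio 0.326, 0.173 to 0.582, adjusted p = 1.77e-04, exact binomial test). The ratio in the wild type was 0.681 (0.414 to 1.11, adjusted p = 0.213). The response in togr1-1 over that in the wild type was 0.479 (0.215 to 1.05, adjusted p = 0.158, Fisher's exact test), and the responses were not shown to differ. Between the genotypes HsfA3 was not called, with a togr1-1 over wild type ratio of 0.526 at 30 °C (0.268 to 0.995) and 1.10 at 25 °C (0.719 to 1.68).

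The clearest difference within the class was that of HsfA4d (LOC_Os05g45410), the rice Spl7 gene. It had 406 reads (16.8 RPKM) in togr1-1 at 30 °C and 365 reads (14.8 RPKM) in togr1-1 at 25 °C, and 149 reads (6.24 RPKM) in the wild type at 30 °C and 381 reads (15.6 RPKM) in the wild type at 25 °C. The wild type at 30 °C was the low library, and the other 3 lay within 365 to 406 reads. HsfA4d was 2.50-fold lower at 30 °C in the wild type (ratio 0.3995, 0.328 to 0.484, adjusted p = 3.14e-22, exact binomial test), whereas in togr1-1 the ratio was 1.13 (0.982 to 1.31, adjusted p = 0.175). At 30 °C HsfA4d was 2.69-fold higher in togr1-1 than in the wild type (2.22 to 3.26, adjusted p = 2.77e-26), and at 25 °C the ratio of togr1-1 over wild type was 0.946 (0.817 to 1.09). The difference between the responses was itself called, with a ratio of ratios of 2.84 (2.23 to 3.62, adjusted p = 3.68e-17, Fisher's exact test). All 3 calls of HsfA4d rest on the same wild-type library at 30 °C, so they are not separate observations. Under the variation of 0.2 assumed in edgeR, the adjusted p of HsfA4d by its exact test was 0.0502 between the wild-type libraries and 0.0359 between the genotypes at 30 °C, and Fisher's exact test has no such term.

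**Figure D3:**
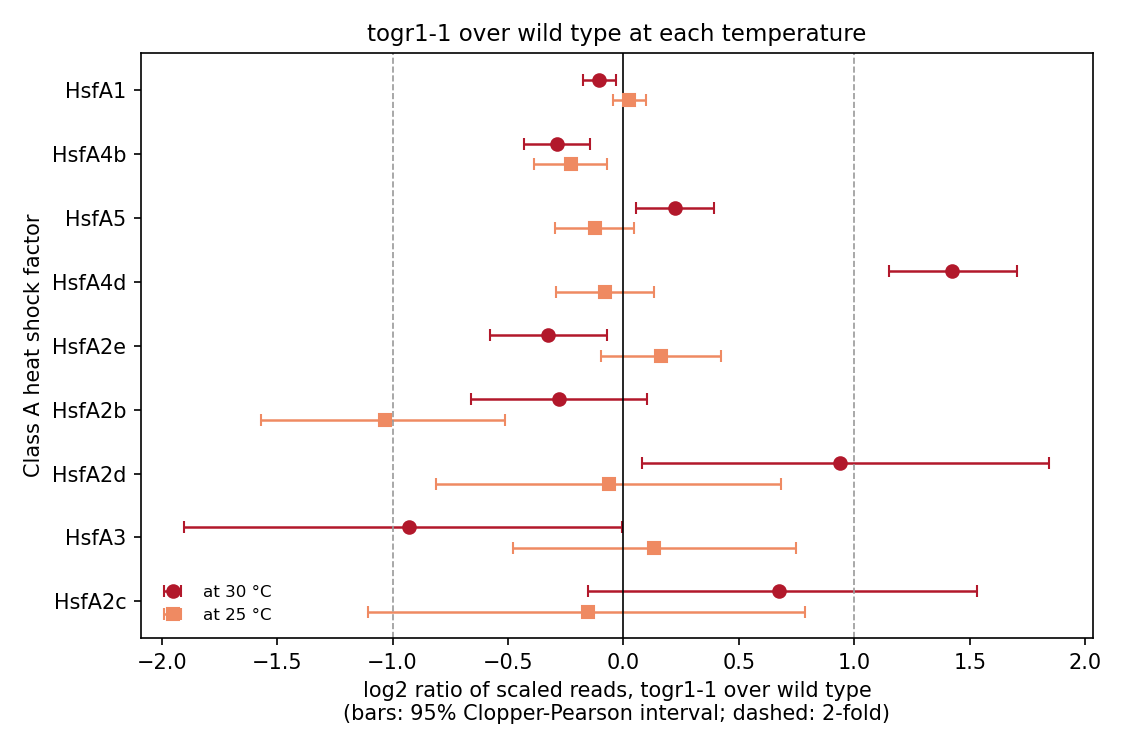
Ratio of scaled reads in togr1-1 over the wild type for each class A factor on a log2 axis, with no pseudocount, at 30 °C (circles) and at 25 °C (squares), with 95% Clopper-Pearson intervals and dashed lines at 2-fold. HsfA4d lies past 2-fold at 30 °C (2.69) and near no difference at 25 °C (0.946), and HsfA2b is past 2-fold at 25 °C alone (0.489).

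HsfA4b (LOC_Os01g54550), the other HsfA4 gene, did not share that pattern of values. It had 743 and 613 reads in togr1-1 at 30 and 25 °C, and 894 and 709 reads in the wild type at 30 and 25 °C, and so had more reads at 30 °C in either genotype. The ratio of 30 over 25 °C was 1.24 in togr1-1 (1.11 to 1.38) and 1.29 in the wild type (1.17 to 1.42). The adjusted p-values were 5.20e-04 and 2.58e-06 by the exact binomial test, but the ratios were below 2-fold and HsfA4b was not called. With TMM factors the adjusted p in togr1-1 was 0.0131, above the threshold. The response in togr1-1 over that in the wild type was 0.959 (0.827 to 1.11). The togr1-1 over wild type ratios of HsfA4b were 0.819 at 30 °C (0.742 to 0.904) and 0.854 at 25 °C (0.765 to 0.953), and neither was called. Within a library, the RPKM of HsfA4d was 0.535 and 0.583 of that of HsfA4b in togr1-1 at 30 and 25 °C, and 0.163 and 0.526 of it in the wild type at 30 and 25 °C. These ratios do not depend on the scaling of the libraries. The share of HsfA4d in the summed RPKM of the class was 8.17% and 7.74% in togr1-1 at 30 and 25 °C, and 2.996% and 7.92% in the wild type at 30 and 25 °C.

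HsfA5 (LOC_Os02g29340) had 634 and 531 reads in togr1-1 at 30 and 25 °C, and 535 and 572 reads in the wild type at 30 and 25 °C. All 4 libraries lay within 1.22-fold, and 90.9% of the loci with at least 200 reads, not matched for depth, had a wider range. The ratio of 30 over 25 °C was 1.22 in togr1-1 (1.08 to 1.37) and 0.955 in the wild type (0.848 to 1.08). The response in togr1-1 over that in the wild type was 1.27 (1.08 to 1.51, adjusted p = 0.0188, Fisher's exact test), past neither the threshold of 0.001 nor 2-fold.

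HsfA2c, HsfA2d and HsfA2e had 2 transcript models each, and the other 6 members had 1. Models of a locus share much of their sequence, and how the authors divided reads between them is not given in the sources used here. On the second model of HsfA2c were 28 of 34 reads in togr1-1 at 30 °C (82.4%, 95% Wilson interval 66.5 to 91.7) and 9 of 20 in togr1-1 at 25 °C (45.0%, 25.8 to 65.8). In the wild type it had 19 of 21 reads at 30 °C (90.5%, 71.1 to 97.4) and 14 of 22 at 25 °C (63.6%, 43.0 to 80.3). The share was thus higher at 30 °C in both genotypes. The second model of HsfA2d had 12 of 35 reads in togr1-1 at 30 °C (34.3%, 20.8 to 50.9) and 2 of 32 in togr1-1 at 25 °C (6.25%, 1.73 to 20.2). In the wild type it had 2 of 18 reads at 30 °C (11.1%, 3.10 to 32.8) and 6 of 33 at 25 °C (18.2%, 8.61 to 34.4). For HsfA2d the library of togr1-1 at 30 °C was the one with the highest share.

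**Figure D4:**
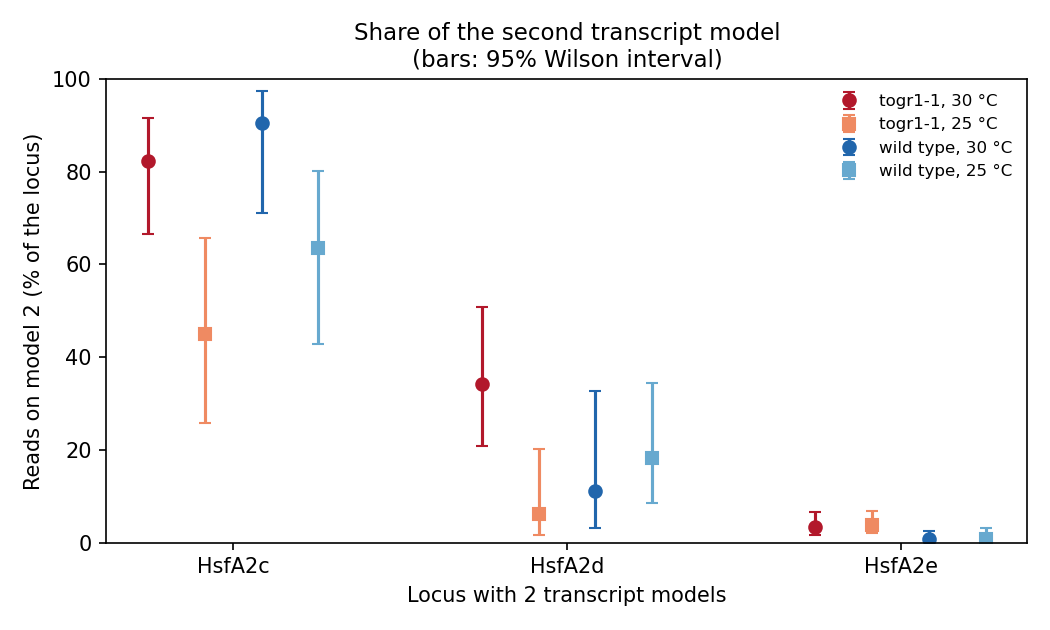
Share of the reads of a locus on its second transcript model, in percent, for the 3 class A loci with 2 models, with 1 point per library and 95% Wilson intervals of counting error. The HsfA2c share is 82.4% and 90.5% in the 30 °C libraries of togr1-1 and the wild type, against 45.0% and 63.6% at 25 °C, on 20 to 34 reads a library.

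Fisher's exact test of the model shares over all loci with 2 or more models called none of the 3 at an adjusted p of at most 0.001. Between the togr1-1 libraries the adjusted p was 0.0595 for HsfA2c and 0.0577 for HsfA2d (unadjusted p = 0.00660 and 0.00624, exact test), where 2.43% of 4738 loci were called and 22.7% had an unadjusted p below 0.05. Between the wild-type libraries it was 0.322 and 0.985, where 1.95% of loci were called. HsfA2e used its second model for 3.40% and 3.80% of reads in togr1-1 at 30 and 25 °C, and for 0.690% and 0.862% in the wild type at 30 and 25 °C. The adjusted p of HsfA2e between the genotypes was 0.254 at 30 °C, where 1.03% of loci were called, and 0.241 at 25 °C, where 1.85% were. A change of model share was therefore not called for any of the 3 at this depth.

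The remaining heat shock factors and their textbook targets, the chaperone genes, were counted on fixed lists of locus identifiers, which were assigned from general knowledge of rice and are not annotated in the tables, so their loci are given as counts only. Of 3 other class A loci, 2 had a row, with at most 18 reads in all in a library. Of these 2, 0 were called in any comparison, against 4.70% to 9.09% of all loci in the 5 comparisons. Of 12 class B and C loci, 10 had a row, with summed reads of 2640 and 2028 in togr1-1 at 30 and 25 °C, and 2566 and 2898 in the wild type at 30 and 25 °C. With temperature, 0 of the 8 with a read in the togr1-1 pair were called, where 7.87% of all loci were. In the wild type 0 of 10 were called, where 9.09% of all loci were. Of the class B and C loci 5 had at least 200 reads, so few could pass the threshold. In the difference of responses 2 of 10 were called, both towards togr1-1, against 3.50% of all loci in that direction. Among class B and C loci 1 of 10 was called between the genotypes at 30 °C, lower in togr1-1, against 2.35% of all loci. At 25 °C 0 of 9 were called, against 4.70% in either direction.

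On the list of 13 HSP70, HSP90 and HSP101 chaperone loci, which refold or disaggregate proteins, 10 had a row. Their summed reads were 21433 and 11604 in togr1-1 at 30 and 25 °C, and 15843 and 17980 in the wild type at 30 and 25 °C. In togr1-1 5 of 10 were called higher at 30 °C and 0 lower, against 5.19% and 2.68% of all loci, with all 10 above 0 and a median log2 ratio of 1.24, beside 0.045 over all loci. On this list 8 of the 10 had at least 200 reads, against 13667 of all 28458 loci, so these shares are not matched for depth. Over those 8 the median was 1.28, beside 0.060 over all such loci. The calls of this list were not examined under the variation assumed in edgeR. In the wild type 2 were called higher and 1 lower, against 4.59% and 4.50% of all loci, with a median of 0.30 beside 0.035. The summed reads were lower at 30 °C in the wild type, at 15843 against 17980, so sum and median differ in sign there. The difference of responses was called for 5 of 10, all towards togr1-1, against 3.50% of all loci. Between the genotypes 1 of 10 was called at 30 °C, higher in togr1-1 (4.08% of all loci), with a median of 0.35 beside -0.060 over all loci. At 25 °C 1 was called, lower in togr1-1 (3.15% of all loci), with a median of -0.63 beside -0.018. The library of togr1-1 at 25 °C, which is the low library of HsfA2b, was thus also the low library of this list. Over all loci, more were called lower than higher in it against the wild type at 25 °C (3.15% and 1.55%). The class B and C loci had their fewest summed reads there (2028), and the small heat shock protein loci described next had their most (2822). The relation of the chaperones to HsfA2b was not tested. Of 18 small heat shock protein loci, whose products hold unfolded proteins in solution, 15 had a read in each temperature pair. There 2 were called higher and 0 lower at 30 °C in togr1-1, against 5.19% and 2.68% of all loci, and 3 higher and 1 lower in the wild type, against 4.59% and 4.50%. Between the genotypes 1 of 15 was called higher and 1 lower in togr1-1 at 30 °C, against 4.08% and 2.35%. At 25 °C 0 were called, against 1.55% higher and 3.15% lower. In the difference of responses 1 of 16 was called, towards togr1-1, against 3.50%. The median log2 ratio of these loci was 0.94 in togr1-1 and 0.29 in the wild type, beside 0.045 and 0.035 over all loci. Over the 4 of them with at least 200 reads it was 0.65 in togr1-1 and 0.63 in the wild type. Their median difference of responses was -0.023. The summed reads of the list were lower at 30 °C, at 2202 against 2822 in togr1-1 and 1710 against 2441 in the wild type, so the median and the sum differ in sign.

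Profiles over the 4 libraries were compared between each of 3 members and the 13661 other loci with at least 200 reads, by the Euclidean distance of centred log2 scaled reads with 1 read added. Nearest to HsfA1, the member with the most reads, were LOC_Os02g09690, LOC_Os04g46320 and LOC_Os10g33230, at distances of 0.021, 0.026 and 0.026. LOC_Os02g09690 had 636 and 660 reads in togr1-1 at 30 and 25 °C, and 675 and 631 reads in the wild type. Nearest to HsfA3, the member with the widest range (2.94-fold), were LOC_Os01g47330, LOC_Os02g53510 and LOC_Os05g35266, at 0.093, 0.18 and 0.18. LOC_Os01g47330 had 671 and 1909 reads in togr1-1 at 30 and 25 °C, and 1226 and 1692 reads in the wild type, and so was low in the same library as HsfA3. Nearest to HsfA2b, the member with the widest range among those with at least 200 reads (2.80-fold), were LOC_Os04g17100, LOC_Os03g16350 and LOC_Os01g40094, at 0.062, 0.074 and 0.076. LOC_Os04g17100 had 1278 and 530 reads in togr1-1 at 30 and 25 °C, and 1459 and 1088 reads in the wild type, with the same low library as HsfA2b. With 4 points for each locus and 13661 loci compared, these are descriptions, and nothing is drawn from them.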

How the data were processed

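The 4 libraries were made from poly(A) RNA and read on an Illumina instrument. The authors deposited raw read counts per transcript model, without normalization. The aligner, the build and the annotation are not given in the sources used here. The authors also deposited RPKM values, which were recalculated from the counts, lengths and column totals to within 4.92e-06%. The tables' own ratios, p-values and FDR between temperatures were not used. No sequence was printed, as no sequence table or genome was used here. Members and lists were chosen with earlier results of these data known. The rule for named genes was all members, their models with at least 10 reads, called members of the other lists, up to 4 a list, where the sources annotate them (none), and the 3 nearest profiles to the member with most reads and to that with the widest range. HsfA2b was added there after the values were seen, as HsfA3 had fewer than 200 reads.

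Counts were summed by locus. Tests were the two-sided exact conditional binomial test and, for the difference of responses, Fisher's exact test, with Benjamini-Hochberg adjustment over loci with a read, an adjusted p of at most 0.001 and at least 2-fold. Ratios are of scaled reads with no pseudocount. Log2 ratios have 1 read added. Intervals are 95% Clopper-Pearson (conditional exact for ratios of ratios) or Wilson, and cover counting error only. The test of model shares was added after the values were seen. It used the 2 models with the most reads of each locus. The tests were checked on simulated counts that held counting error only, so this check does not cover variation between plants. Fewest reads of a called locus over a pair of libraries were 12. None of the 28458 locus identifiers matched RefSeq (ASM3414082v1), where the factors were matched by name. Alternatives were TMM factors, DESeq2 size factors, 1.5-fold and 4-fold, at least 10 reads, edgeR with assumed variation, transcript models, a pseudocount of 0.5 read, and RPKM plus 0.01. Versions were Python 3.11.15, numpy 2.4.6, scipy 1.17.1, pandas 2.3.3, matplotlib 3.10.9, R 4.3.3, edgeR 4.0.16 and DESeq2 1.42.0. Reads that near-identical, overlapping or antisense genes share could have been divided in ways the counts do not show.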

Additional observations from a re-analysis of the deposited data

Results flagged for a closer look

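The temperature response of HsfA4d differed between the genotypes. The log2 ratio of ratios, with 1 read added, was 1.498 for togr1-1 over the wild type, and it was called by Fisher's exact test, which compares the 4 libraries. HsfA4d was lower at 30 °C in the wild type and not in togr1-1, on 1 library per group, so the difference was not tested across plants.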

How the results depend on the processing

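With 1 library per group no replicate could be left out. TMM and DESeq2 size factors shifted the log2 ratios of all loci in a pair of libraries by -0.086 to 0.063. Of the members' 180 recalculated log2 ratios, 178 kept their sign, and the others were HsfA1 in togr1-1 (-0.076 with TMM factors and -0.052 with DESeq2 size factors, against 0.00088). Another scaling changed 1 call of a member, that of HsfA2b between the genotypes at 25 °C with TMM factors (a log2 ratio of -0.98, against -1.02), which left 0 members called there. For HsfA4b, which was not called, the adjusted p crossed 0.001 with TMM factors in togr1-1 (0.0131) and between the genotypes at 30 °C (0.00314), and with DESeq2 size factors likewise (0.00502 and 0.00749). With 1 read added, the uncalled log2 difference of responses of HsfA3 was -0.99 with DESeq2 size factors, against -1.02. The 2-fold limit was set on ratios with no pseudocount, where that of HsfA3 was 0.479 by total reads. The summed RPKM and the ratios with no pseudocount were rescaled after seeing the data. With a 4-fold difference 0 members were called in each of the 5 comparisons. With edgeR's exact test and an assumed coefficient of variation of 0.2 or 0.4, the number was 0 in each of the 4 pairs of libraries. Over all loci, taking first the temperature pairs of togr1-1 and of the wild type, then the genotype pairs at 30 and 25 °C, and last the difference of responses, the numbers called were 2081, 2404, 1698, 1246 and 1527. They were 3745, 4221, 2852, 2620 and 2597 at 1.5-fold and 647, 819, 731, 424 and 580 at 4-fold. In the 4 pairs they were 272, 512, 393 and 187 with assumed variation of 0.2, and 11, 24, 32 and 20 with 0.4. edgeR was not run for the difference of responses. DESeq2 size factors, 1.5-fold, at least 10 reads and transcript models called the same members as in the report, and so did TMM factors apart from HsfA2b at 25 °C. For the difference of responses, another scaling or fold limit changed only the ratio of ratios or its limit. The adjusted p of Fisher's exact test was carried over, so the HsfA4d call was not retested there under another scaling. The test of model shares called 0 of 3 members also with at least 10 reads, an alternative chosen after seeing the data. No paired analysis was possible because the groups have 1 library each.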
